A study of Mus musculus with 20 samples.

Results

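The comparison set 3 hearts of mice lacking MuRF1 (MuRF1 -/-) after 8 weeks of fenofibrate against 4 MuRF1 -/- hearts after 3 weeks, across all genes on the array. These 7 arrays, chosen by the genotype and weeks in their titles, were 7 of the 20 in the series. The series measured hearts of MuRF1 +/+ and MuRF1 -/- mice on chow or on chow with fenofibrate, to ask what part MuRF1 plays in the heart growth that the drug brings about. Each array held RNA of 1 heart in the red channel and a common reference of whole newborn C57BL/6 mice in the green channel. Both groups compared here lacked MuRF1, encoded by Trim63, and both ate chow with 0.05% (w/w) fenofibrate, so they differed by the weeks on the diet alone as far as the labels say. No MuRF1 -/- chow heart enters the difference. The hearts were labelled as biological replicates, the labels give no sex or litter, and the sources used here do not say how MuRF1 was deleted. The series text calls the mice strain-matched and 3 to 8 weeks old. It does not give an age at harvest for each heart, so time on the drug and age cannot be told apart. The same contrast in MuRF1 +/+ hearts, again 3 against 4, is set beside some results.

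Fenofibrate activates the nuclear receptor PPAR alpha, which in heart muscle switches on genes for the uptake, storage, transport and oxidation of fatty acids. MuRF1 is a ubiquitin ligase of the sarcomere that marks muscle proteins for breakdown by the proteasome, and its loss is known to alter how hearts grow and shrink. Hearts are made of cardiomyocytes, which supply most of the RNA, and of endothelial cells, fibroblasts, smooth muscle cells and macrophages. In bulk heart RNA, fewer cells of a type and less RNA per cell cannot be told apart.

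All levels below are log2 ratios of heart over reference, and all differences are 8 minus 3 weeks on that scale, with the standard error (SE) of a limma fit over the 20 arrays. A gene was called where its Benjamini-Hochberg adjusted p over the 14567 tested genes was under 0.05. Trim63 itself lay at -1.19, -0.94, -1.16 and -0.49 in the 3-week hearts and at -0.95, -0.98 and -1.0 in the 8-week hearts, with group means of 2.57 and 2.02 in MuRF1 +/+ hearts at 3 and 8 weeks. Its difference was -0.03 ± 0.31 (adjusted p = 0.951). The share of heart probes well above background was 34.3% to 51.9% at 3 weeks and 38.8% to 41.9% at 8 weeks. Precision is limited by the number of arrays. The 8-week arrays correlated with each other at 0.984 to 0.986 and 3-week replicates 1 to 3 at 0.968 to 0.977. Replicate 4 of the 3-week group, the array with 34.3%, correlated with those at 0.896 to 0.918. The first principal component, with 61.5% of the variance, parted the groups, and the second, with 23.4%, set this replicate apart.

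Of the 14567 genes, 4592 were called (31.5%), 1966 of them higher at 8 weeks (13.5%) and 2626 lower (18%). These shares are the background for the gene lists below, which are read against them. The groups of hearts did not overlap for 5699 of the 14340 genes measured on all 7 arrays (39.7%), and the median difference of all genes was 0.00. A difference of at least 1 (2-fold) was reached by 123 called genes upward and 262 downward, and one of at least 2 by 3 and 29. The count was 3216 to 4807 when each of the 7 hearts was left out in turn. Array weights raised it to 7032. Among the 8-week hearts, replicates 1 and 3 had Y-linked transcripts well above background and replicate 2 had none. A covariate for the level of these transcripts left 2004 calls, 842 higher and 1162 lower. The count was also taken without these 2 hearts, which left 8-week replicate 2 as the lone 8-week heart, assumed to vary like the others, and 1272 calls. Arrays that share a scan date in the file headers are called a slide here, and slides 2 and 5 each held a heart of both groups. Of the called genes, 97.8% had the sign of the fit in the pair on slide 2 and 99.3% in the pair on slide 5, these hearts being part of the fit. With slide as a block 1411 genes were higher and 1857 lower, and on the heart channel alone 2111 and 2574. A list count in an alternative run is to be read against that run's count over all genes. Where fewer genes are called in all, a smaller list count need not be particular to the list. The chart of called shares shows the gene lists in order.

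**Figure D1:**
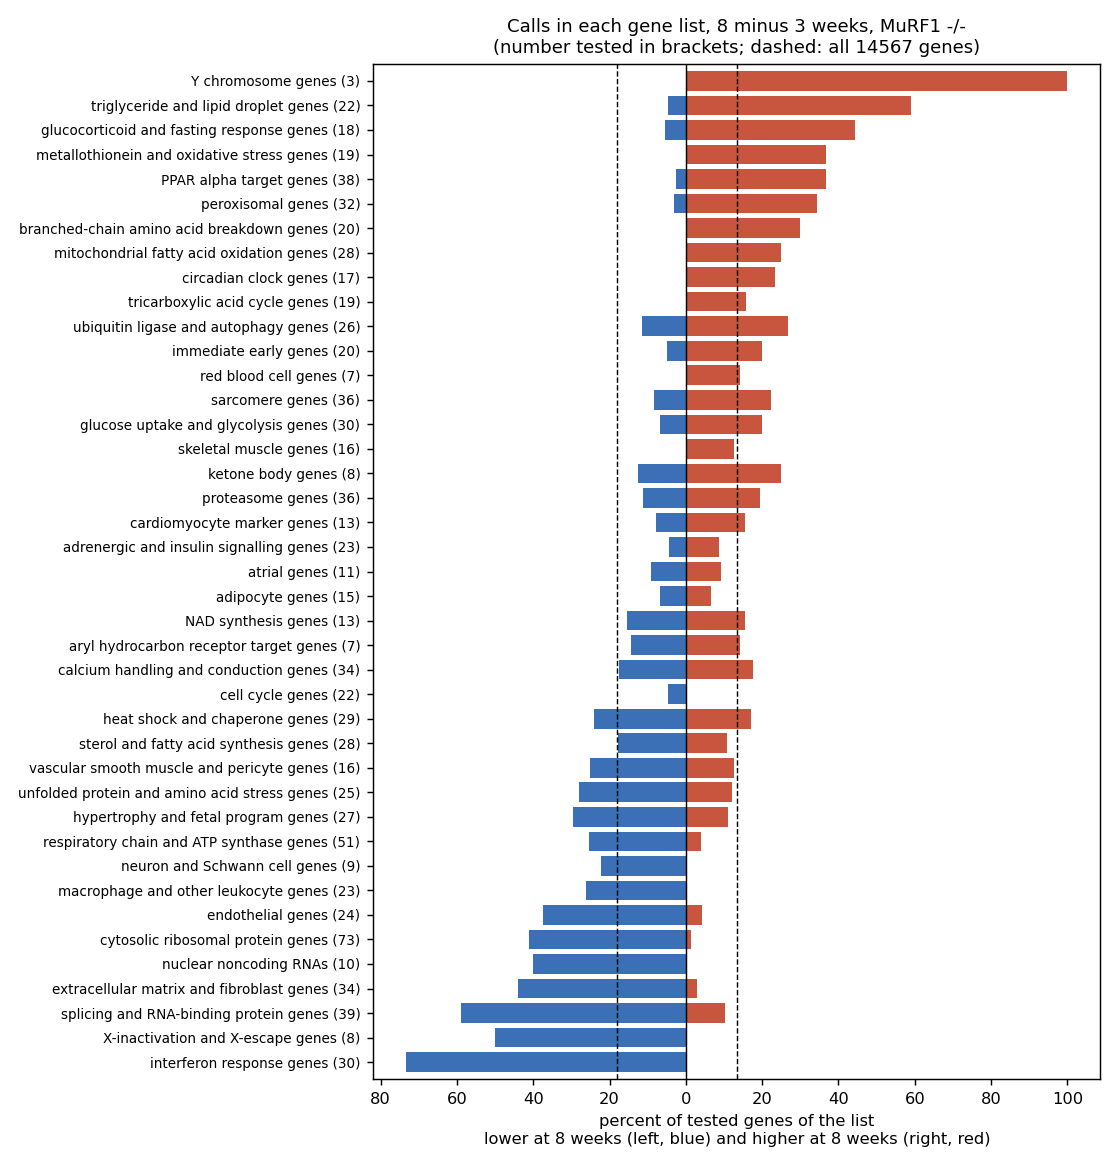
Percent of the tested genes of each list called lower (blue, to the left) or higher (red, to the right) at 8 weeks in MuRF1 -/- hearts, with the number tested in brackets and dashed lines at the shares of all genes, 18% and 13.5%. Lipid droplet genes lie at the top beside the Y chromosome genes with 59.1% higher, and interferon response genes at the bottom with 73.3% lower.

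Among genes with a RefSeq symbol and no overlap between the groups, Acot1 and Pdk4, which act on fatty acid and pyruvate use, had the 2 largest rises. Acot1, which frees fatty acids from acyl-CoA in the cytosol, lay at -2.06, -1.68, -1.80 and -1.45 in the 3-week hearts and at 0.09, 1.24 and 0.62 in the 8-week hearts. The groups did not overlap, and Acot1 rose by 2.40 ± 0.36, or 5.27-fold (adjusted p = 9.59e-05). Pdk4, the kinase that keeps pyruvate out of the citric acid cycle, lay at 0.18, -0.39, -0.88 and -0.58 and then at 1.38, 2.65 and 1.74. It rose 5.07-fold (2.34 ± 0.33, adjusted p = 5.43e-05), and in both genes 8-week replicate 2 was the highest heart. Plin5, which coats the lipid droplets that touch mitochondria, rose 2.51-fold from 1.49, 1.42, 1.33 and 1.12 to 2.36, 3.04 and 2.59 (1.33 ± 0.20, adjusted p = 7.73e-05). Within slides 2 and 5 the differences were 2.07 and 2.92 for Acot1 and 2.32 and 3.04 for Pdk4. All 3 genes kept their calls in every alternative processing run.

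Of 38 PPAR alpha target genes tested, 14 were higher, 1 was lower and 23 were not called, with a median of 0.28. With the Y-linked covariate 12 were higher, and 10 with 8-week replicate 2 as the lone heart. Beside Acot1, Pdk4 and Plin5 these included Mlycd (1.03 ± 0.21), which breaks down the malonyl-CoA that restrains fatty acid entry into mitochondria, and Txnip (1.02 ± 0.19), an inhibitor of glucose uptake, whose second probe gave 0.41 (0.186 over all probes). Other members of the list were not called. Cpt1b, the muscle carnitine palmitoyltransferase, differed by -0.02 ± 0.13 (adjusted p = 0.909) and Cd36, the fatty acid transporter, by 0.20 ± 0.21 (0.5). The brightest probe decided for each gene, and a second Cd36 probe gave 0.39 (adjusted p over all probes = 0.0182). Creb3l3, a lipid-responsive transcription factor best known from liver, fell 3.89-fold, from -0.33, -0.37, -0.79 and 0.22 to -2.09, -2.28 and -2.46 (-1.96 ± 0.20, adjusted p = 2.04e-06). Angptl4, the inhibitor of lipoprotein lipase, lay at -2.65, -2.80, -3.08 and -2.40 and then at -1.72, -0.42 and -2.51. These groups overlap, and its difference of 1.18 ± 0.34 (adjusted p = 0.014) lost its call without 8-week replicate 2 (0.124), with slide as a block (0.0512) and with only the 7 arrays in the fit (0.0608).

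Lipid droplet and triglyceride genes were higher for 13 of 22 tested and lower for 1 (median 0.45). With the Y-linked covariate 8 were higher, and 7 with 8-week replicate 2 as the lone heart. Pnpla2, the triglyceride lipase ATGL, lay at -0.05, 0.02, 0.28 and 0.29 at 3 weeks and at 1.16, 1.38 and 1.25 at 8 weeks, with no overlap (1.13 ± 0.12, adjusted p = 4.72e-06), and a second probe gave 1.94. The droplet protein Plin4 rose by 1.06 ± 0.12 (adjusted p = 5.7e-06), and Dgat1, which forms triglycerides, by 0.74 ± 0.10 (adjusted p = 4.61e-05), though not on the heart channel alone (0.251). For Abhd5, the coactivator of ATGL, the probes disagreed, with 0.73 ± 0.12 (adjusted p = 0.000237) and -0.02. Fitm1, which helps droplets to form in muscle, rose by 1.22 ± 0.27 (adjusted p = 0.00218). It lost the call only with 8-week replicate 2 as the lone 8-week heart (0.0718). Lpin2, a phosphatidate phosphatase, was the member that fell (-0.50 ± 0.17, adjusted p = 0.0287), a call lost in 11 of 22 alternative runs, among them those without 3-week replicate 4 (0.0781) or 8-week replicate 2 (0.0794) or 3 (0.14). The mean level of the list lay between -0.30 and -0.11 in the 3-week hearts and between 0.21 and 0.29 in the 8-week hearts. The groups did not overlap, which held for the means of many lists. Glucose genes, for example, had means of 0.43 to 0.50 at 3 weeks and 0.52 to 0.55 at 8 weeks.

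Peroxisomal genes were higher for 11 of 32 tested and lower for 1 (median 0.26), with genes of peroxisome assembly among the former. Pex14, a docking protein for imported enzymes, rose by 0.95 ± 0.12 (adjusted p = 2.02e-05) and Pex16, a membrane assembly factor, by 0.83 ± 0.12 (adjusted p = 5.45e-05). With the Y-linked covariate 6 genes were higher, and 3 with 8-week replicate 2 as the lone heart. Of the mitochondrial genes, 7 of 28 for fatty acid oxidation were higher and 0 lower in limma, and 9 and 0 had an unadjusted p under 0.05 (median 0.20). The count higher was 4 without 3-week replicate 3, 3 without 8-week replicate 2, 4 with the Y-linked covariate and 2 with slide as a block. It was smaller still in a further run, and the median lay between 0.16 and 0.35 over all runs. Acads, the short-chain acyl-CoA dehydrogenase, led them. It lay at 0.52, 0.70, 0.77 and -0.03 at 3 weeks and at 1.96, 1.94 and 1.99 at 8 weeks (1.47 ± 0.28, adjusted p = 0.000679). For Hadha, the alpha subunit of the trifunctional protein, the probes disagreed: the brightest gave 0.73 ± 0.20 (adjusted p = 0.0101) and another -0.34 (0.00161 over all probes). The call of the brightest was lost with slide as a block (0.0546), with the mean over the gene's probes (0.227) and with 8-week replicate 2 as the lone heart (0.15).

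Breakdown of branched-chain amino acids, which feeds the citric acid cycle, held 6 genes that rose and 0 that fell among 20 tested (8 and 1 at an unadjusted p under 0.05 in limma, median 0.39). With the Y-linked covariate 2 were higher, and 4 with slide as a block. Fewer still were higher in a further run, and the median lay between 0.27 and 0.49 over all runs. Bckdk, the kinase that inhibits the branched-chain keto acid dehydrogenase, lay at 0.27, 0.54, 0.51 and 0.02 and then at 1.34, 1.20 and 1.10 (0.88 ± 0.16, adjusted p = 0.000457). Bckdhb, a subunit of that dehydrogenase, rose by 0.69 ± 0.19 (adjusted p = 0.00881). Its call was lost with slide as a block (0.0501), with the Y-linked covariate (0.0734) and with 8-week replicate 2 as the lone heart (0.111). Of 19 citric acid cycle genes 3 were higher and 0 lower (3 and 0 at an unadjusted p under 0.05), which is 15.8% against 13.5% of all genes. Ogdh, the oxoglutarate dehydrogenase, rose by 1.09 ± 0.21 (adjusted p = 0.000897), with 1.09 at a second probe. Ogdh alone kept its call in each of the runs that left out 3-week replicate 4 or 8-week replicate 2 or 3. Glucose genes divided: Pdk2, a second pyruvate dehydrogenase kinase, rose by 1.05 ± 0.19 (adjusted p = 4e-04). Pfkfb2, which makes the activator of heart glycolysis, fell by 0.96, and Hk2, an insulin-responsive hexokinase, by 0.52 ± 0.14 (adjusted p = 0.00758, or 0.167 with 8-week replicate 2 as the lone heart). The 2 other Pfkfb2 probes gave -0.64 and -0.20. In all 6 of 30 glucose genes were higher and 2 lower (20% and 6.67%), against 13.5% and 18% of all genes. Of them 3 were higher without 3-week replicate 1 or 8-week replicate 2. The count of higher glucose genes was 1 with the Y-linked covariate.

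Genes of the respiratory chain and ATP synthase were lower more often than higher. Of 51 tested 13 were lower and 2 higher (25.5% and 3.92%, median -0.23). Ndufa4, a cytochrome oxidase subunit, fell from 2.43, 2.31, 2.47 and 3.20 to 1.67, 1.68 and 1.59 (-0.96 ± 0.18, adjusted p = 0.000816, or 0.0579 with 8-week replicate 2 as the lone heart). The count of lower genes rested on the processing. On the heart channel alone 1 was lower and 3 higher, and 6 were lower with the Y-linked covariate. The fewest lower in any run was 0, and the median lay between -0.37 and -0.04 over all runs. By heart left out, 5 were lower without 8-week replicate 1, 5 without 8-week replicate 2, 7 without 8-week replicate 3 and 8 without 3-week replicate 4. Of 73 genes of the cytosolic ribosome, 30 were lower and 1 higher (41.1% and 1.37%, median -0.38). The lower genes numbered 17 without 8-week replicate 3, 11 with the Y-linked covariate, 16 with slide as a block and 11 on the heart channel alone. They were fewer still in a further run, and the median lay between -0.45 and -0.16 over all runs. Rps29, a small-subunit protein, lay at 0.56, 0.60, 0.77 and 1.16 and then at 0.00, 0.09 and 0.07 (-0.72 ± 0.18, adjusted p = 0.00483, or 0.134 with 8-week replicate 2 as the lone heart). The list's mean level lay between -0.77 and -0.48 in the 3-week hearts and between -1.05 and -0.94 in the 8-week hearts. Within slide 2 the list's mean difference was -0.57 and within slide 5 -0.32. Ribosomal protein genes have many near-identical pseudogenes, so single members are uncertain. For Rps24 the 3 probes gave -0.71, -0.38 and -0.01.

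Genes that respond to glucocorticoids and fasting were higher for 8 of 18 tested and lower for 1 (median 0.54), with 6 higher with the Y-linked covariate and 5 with 8-week replicate 2 as the lone heart. The transcription factors Cebpb and Cebpd were among the 15 genes with the largest rises. Cebpb lay at -1.34, -0.82, -0.39 and -0.15 and then at 1.03, 0.72 and 0.93 (1.57 ± 0.22, adjusted p = 5.45e-05), with 0.65 at a second probe. Cebpd lay at -0.97, -0.79, -0.21 and -1.04 and then at 0.54, 0.81 and 0.80 (1.47 ± 0.28, adjusted p = 0.000689). Klf9, a glucocorticoid-induced factor, rose by 0.72 ± 0.15 (adjusted p = 0.00141), a call lost with 8-week replicate 2 as the lone heart. Outside this list, Lrg1, a secreted glycoprotein of the acute phase, rose by 1.62 ± 0.20, or 3.08-fold (adjusted p = 1.72e-05). Metallothionein and oxidative stress genes were higher for 7 of 19 and lower for 0 in limma, with 7 and 1 at an unadjusted p under 0.05. The count higher was 5 with the Y-linked covariate and 3 with the lone heart. Mt1, which binds zinc and cadmium, rose from 0.25, -0.02, 0.11 and 0.10 to 1.17, 1.24 and 1.11 (1.06 ± 0.14, adjusted p = 2.58e-05), while its second probe gave -0.19 (0.092 over all probes). Gclm, the modifier subunit of glutathione synthesis, rose by 0.81 ± 0.10 (adjusted p = 1.42e-05).

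Among genes of protein breakdown, Sqstm1, the autophagy adaptor p62, had the smallest p. It lay at 0.66, 0.83, 0.73 and 0.86 at 3 weeks and at 2.52, 2.06 and 2.43 at 8 weeks, a 2.96-fold rise (1.57 ± 0.14, adjusted p = 7.52e-07). The autophagosome proteins Map1lc3a (0.92 ± 0.19) and Map1lc3b (0.80 ± 0.18) rose as well. Fbxo31, an F-box ubiquitin ligase subunit, rose from 1.18, 1.07, 1.38 and 1.82 to 2.64, 2.73 and 2.60 (1.29 ± 0.14, adjusted p = 2.88e-06), and a second probe gave 1.78. Trim55, which encodes MuRF2, the sarcomeric relative of MuRF1, fell in these MuRF1 -/- hearts. It lay at 0.37, 0.25, 0.16 and 0.51 at 3 weeks and at -1.20, -1.35 and -1.40 at 8 weeks, a 3.12-fold fall without overlap (-1.64 ± 0.21, adjusted p = 1.98e-05). Fbxo32, the muscle ligase atrogin-1, differed by -0.01 ± 0.21 (adjusted p = 0.975). In all, 7 of 26 ubiquitin ligase and autophagy genes were higher and 3 lower (26.9% and 11.5%), with 1 lower without 8-week replicate 2. Of 36 proteasome genes 7 were higher and 4 lower (19.4% and 11.1%), against 13.5% and 18% of all genes. The ubiquitin ligase and autophagy genes numbered 6 higher and 2 lower with the Y-linked covariate, and 3 and 1 with 8-week replicate 2 as the lone heart. The proteasome genes then numbered 4 and 2 with the covariate and 1 and 1 with the lone heart. The 3 inducible subunits of the immunoproteasome, Psmb8, Psmb9 and Psmb10, were among the 4 lower proteasome genes, and Psmb8 and Psmb9 lost their calls with the covariate (0.145 and 0.059) and with the lone heart (0.0927 and 0.0586). Sqstm1, Fbxo31 and Trim55 kept their calls in every alternative run, and Map1lc3a (0.0553) and Map1lc3b (0.0573) lost theirs with 8-week replicate 2 as the lone heart.

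Herpud1, an endoplasmic reticulum protein induced by unfolded proteins, rose 2.97-fold from 0.56, 1.20, 1.18 and 0.70 to 2.42, 2.69 and 2.33 (1.57 ± 0.14, adjusted p = 8.26e-07). Dnajb9, a co-chaperone of that compartment, rose by 0.62 ± 0.16 (adjusted p = 0.00656), and several other chaperones there fell. Hsp90b1 (GRP94) fell from 0.18, 0.43, 0.36 and 0.73 to -1.10, -0.78 and -1.03 (-1.40 ± 0.16, adjusted p = 7.18e-06), with -0.94 at a second probe. Hspa5 (BiP) fell by 0.82 ± 0.18 (adjusted p = 0.0022), with its spot missing on 8-week replicate 3. Its call was lost with the Y-linked covariate (0.0762) and with 8-week replicate 2 as the lone heart (0.06). Calr, the calcium-binding chaperone calreticulin, fell by 0.86 ± 0.11 (adjusted p = 1.88e-05), while a second probe gave 0.12 (0.253 over all probes). Of 25 genes of the unfolded protein and amino acid stress responses, 7 were lower and 3 higher (28% and 12%). The shares of all genes were 18% and 13.5%. The lower genes numbered 4 without 8-week replicate 3 and 3 with the Y-linked covariate.

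Muscle structure genes changed in both directions, with 8 of 36 sarcomere genes higher and 3 lower (22.2% and 8.33%, median 0.13). Of all genes 13.5% were higher and 18% lower, so a smaller share of sarcomere genes fell than of all genes. Myh7, the slow myosin heavy chain of the fetal heart, lay at 0.13, 0.35, -0.86 and 0.57 and then at 2.35, 1.58 and 2.00, a 3.80-fold rise (1.93 ± 0.41, adjusted p = 0.00166), with 2.09 at a second probe. Myh6, the adult form, differed by 0.28 ± 0.22 (adjusted p = 0.364) and Acta1, skeletal actin, by -0.55 ± 0.29 (0.155). Des, the intermediate filament desmin, rose from 0.11, 0.46, 0.17 and -0.99 to 1.77, 1.78 and 1.64 (1.79 ± 0.40, adjusted p = 0.00234). Ttn, the giant spring protein titin, fell from 1.61, 1.27, 1.43 and 1.78 to -0.14, -0.10 and -0.10 (-1.64 ± 0.30, adjusted p = 5e-04). All 9 measured Ttn probes were lower, by -1.94 to -0.22. The Myh7 call was lost with the Y-linked covariate (0.141) and, like that of Des (0.0749), with 8-week replicate 2 as the lone heart (0.135). Leaving out 3-week replicate 4, 8-week replicate 1 or 8-week replicate 3 left 5 sarcomere genes higher. With the Y-linked covariate 4 were higher and 2 lower, and with the lone heart 0 and 1 in limma (5 and 3 at an unadjusted p under 0.05).

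Of 27 hypertrophy and fetal program genes, 8 were lower and 3 higher, Myh7 among the latter. These are 29.6% and 11.1%, against 18% and 13.5% of all genes, and with the Y-linked covariate 1 was lower. Between 4 and 5 were lower without 3-week replicate 1 (4), 8-week replicate 1 (5), 8-week replicate 2 (4) or 8-week replicate 3 (5). Nppb, the natriuretic peptide BNP, lay at 4.77, 4.05, 3.95 and 3.65 and then at 2.87, 2.40 and 3.45, and Nppa, the peptide ANP, at 3.38, 3.14, 3.04 and 3.76 and then at 2.90, 2.85 and 2.36. Neither gene's groups overlapped. The differences of -1.20 ± 0.42 for Nppb (adjusted p = 0.035) and -0.62 ± 0.21 for Nppa (0.0306) were near the threshold. That of Nppb lost its call without 3-week replicate 1 (0.105), 2 (0.0512) or 3 (0.0502) or 8-week replicate 1 (0.0891) or 2 (0.161). That of Nppa was lost without 3-week replicate 1 (0.0612) or 4 (0.0793) or 8-week replicate 3 (0.176). Both were lost in the series matrix (0.164 and 0.0541), without the filter on dim probes, with the mean over probes, with the Y-linked covariate and with 8-week replicate 2 as the lone heart. Fitting the background on all spots (0.107) and Agilent's log ratio (0.0591) also ended the Nppb call, and the Nppa call ended with only the 7 arrays (0.0869) and without the 2 arrays that stand apart (0.0553). Ccnd1, the cyclin D1 of cell growth, fell by 1.04 ± 0.12 (adjusted p = 8.18e-06).

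Of 34 calcium handling and conduction genes, 6 were higher and 6 lower (17.6% each), against 13.5% and 18% of all genes. Kcnj11, a pore subunit of the ATP-sensitive potassium channel, rose from 0.64, 0.82, 1.07 and 0.39 to 1.84, 1.93 and 1.77 (1.12 ± 0.20, adjusted p = 0.000459). Kcnh2, the channel of the rapid delayed rectifier current, rose by 0.94 ± 0.16 (adjusted p = 0.000265). Cacnb2, a calcium channel subunit, fell from 0.93, 0.55, 1.91 and 0.86 to -0.02, -0.04 and 0.05 and was not well above background in any 8-week heart. On the heart channel it was at least 2.01-fold lower (adjusted p = 0.000648 in limma), and the 2 other Cacnb2 probes gave -0.41 and -0.21. Without 8-week replicate 3 the numbers were 5 higher and 3 lower, and with the Y-linked covariate 4 and 2.

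**Figure D2:**
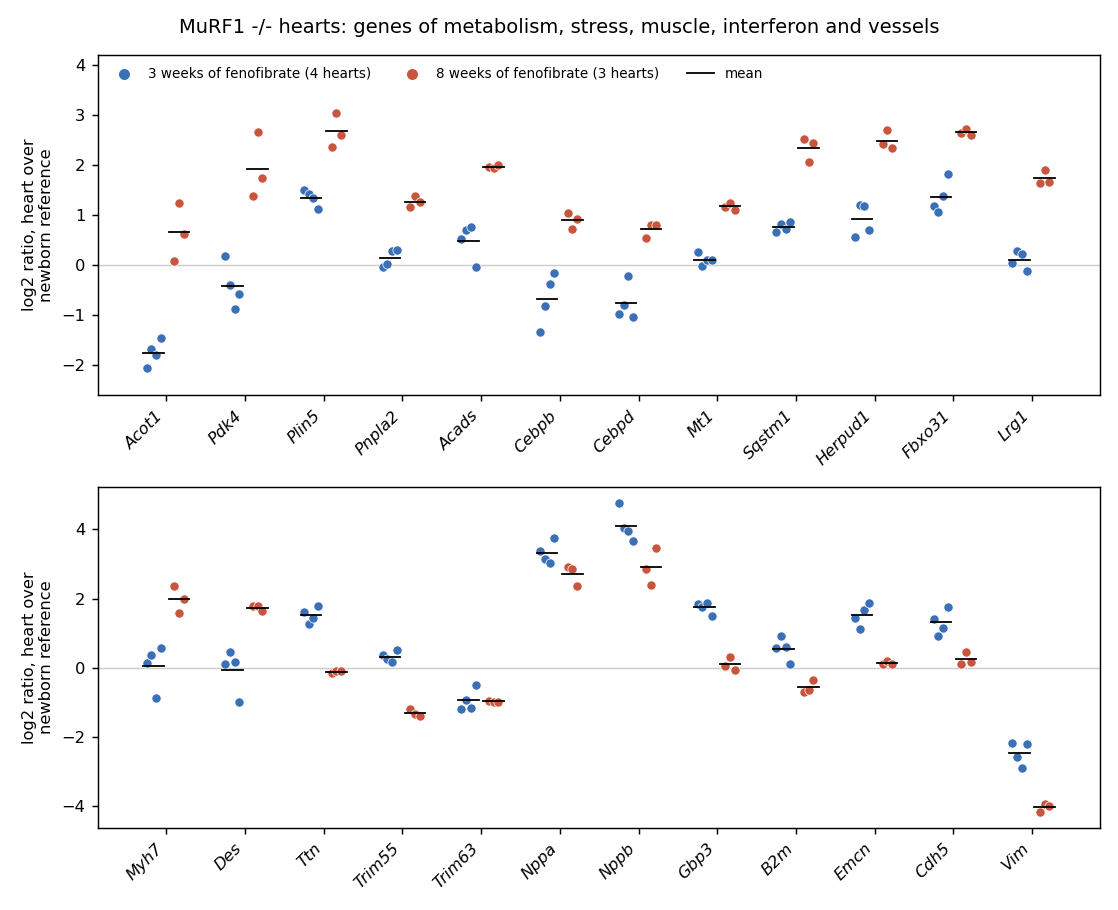
Log2 ratio of heart over newborn reference in each MuRF1 -/- heart, for 24 genes, at 3 weeks (blue, 4 hearts) and 8 weeks (red, 3 hearts), with black bars at the means. The groups do not overlap for any of these genes except Trim63, and in Acot1 and Pdk4 the highest 8-week heart is replicate 2. The named genes were in part chosen for having no overlap, so its absence here is not a separate result. Of the 14340 genes measured on every array of the comparison, 39.7% had no overlap.

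Of the 41 gene lists, that of interferon response genes had the largest share lower at 8 weeks. Cells switch these genes on to resist viruses and to present antigen. Interferons act through factors that include STAT2 and IRF9 and that bind a short repeat, the interferon-stimulated response element. The letters GAAANNGAAA, or their reverse complement, were searched for in the 250 bases before each start in RefSeq promoters (GRCm38.p6). A longer run of the repeat gives overlapping matches. They were found in 2.98% of 32851 promoters, in 3.14% of the 9897 tested genes with a promoter, and in 10 of the 18 lower interferon genes with one. They were in 1 of the 6 interferon genes that were not called. The 120 bases before the start of 4 lower genes are shown because they carry these letters, with the fixed bases of each match in capitals. Gbp3 is at chr3:142559924-142560043 (plus strand), Isg15 at chr4:156200819-156200938 (minus strand), Oas1a at chr5:120907526-120907645 (minus strand) and Ifit1 at chr19:34640769-34640888 (plus strand).
Gbp3: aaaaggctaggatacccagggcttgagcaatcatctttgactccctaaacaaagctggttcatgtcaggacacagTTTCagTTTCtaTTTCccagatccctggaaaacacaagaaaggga
Isg15: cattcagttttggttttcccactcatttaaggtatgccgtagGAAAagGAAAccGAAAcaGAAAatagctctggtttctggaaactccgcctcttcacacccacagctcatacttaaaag
Oas1a: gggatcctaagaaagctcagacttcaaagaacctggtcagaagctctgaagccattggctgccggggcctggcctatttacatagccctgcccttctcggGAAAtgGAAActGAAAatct
Ifit1: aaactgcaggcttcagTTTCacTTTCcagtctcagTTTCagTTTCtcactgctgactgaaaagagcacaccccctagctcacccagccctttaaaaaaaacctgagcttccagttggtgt
In Isg15 the matches are 3 in a row, in Gbp3 and Oas1a 2 overlapping ones, and in Ifit1 2 separate ones, on the reverse complement in Gbp3 and Ifit1. Outside the list, 300 tested genes held these letters, of which 17.3% were lower and 12.0% higher, near the shares of all genes. A match of letters is a description of the sequence and not a measured site.

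Of 30 interferon response genes tested, 22 were lower and 0 higher at 8 weeks, and 24 and 0 had an unadjusted p under 0.05 in limma (median -0.60). Gbp3, a guanylate-binding GTPase, lay at 1.85, 1.74, 1.88 and 1.50 in the 3-week hearts and at 0.04, 0.31 and -0.06 in the 8-week hearts. It fell 3.12-fold (-1.64 ± 0.17, adjusted p = 2.22e-06). B2m, the light chain of class I antigen-presenting molecules, fell from 0.57, 0.91, 0.61 and 0.12 to -0.69, -0.64 and -0.36 (-1.12 ± 0.23, adjusted p = 0.00144), and its 2 other probes gave -1.03 and -0.92. Psmb9, the immunoproteasome subunit that trims peptides for display, fell from 1.40, 1.40, 1.47 and 0.93 to 0.24, 0.59 and 0.39 (-0.89 ± 0.15, adjusted p = 0.000248). Isg15, a ubiquitin-like protein, lay at 0.26, 0.19, 0.51 and 0.03 and then at -0.14, -0.10 and -0.10 (-0.36 ± 0.10, adjusted p = 0.00842). Oas1a, an RNA sensor, fell by 0.48 ± 0.13 (adjusted p = 0.0108). Ifit1, which binds foreign RNA, lay at 0.87, 0.48, 1.12 and 0.40 and at -0.22, 0.46 and 0.17, and its groups overlapped (-0.58 ± 0.16, adjusted p = 0.009). Stat2 (-0.79) and Irf9 (-0.65), which carry the interferon signal to the nucleus, were lower too.

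The mean level of the interferon list lay at 0.76, 0.64, 1.03 and 0.42 in the 3-week hearts. In the 8-week hearts it lay at 0.03, 0.25 and 0.11. The groups did not overlap, as for the means of many other lists. Replicate 3 was the highest 3-week heart. Within slides 2 and 5 the mean difference was -0.30 and -0.39. With the Y-linked covariate the list's median was -0.37 and 4 genes were lower, and with 8-week replicate 2 as the lone heart the median was -0.54 and 5 were lower. Gbp3 and Stat2 kept their calls with that covariate, whereas B2m (adjusted p = 0.0758), Psmb9 (0.059), Isg15 (0.296), Oas1a (0.417), Ifit1 (0.677) and Irf9 (0.131) lost theirs. Oas1a (0.0522 without 8-week replicate 3) and Ifit1 (0.076 without 8-week replicate 1) depended on single hearts too. Leukocyte genes were lower for 6 of 23 tested and higher for 0 (9 and 0 at an unadjusted p under 0.05). The lower share was 26.1%, against 18% of all genes. Of the 6 macrophage markers, only Adgre1 was called (-0.50, lost with the Y-linked covariate at 0.178), and the mean level of the markers lay between -0.18 and -0.04 at 3 weeks and between -0.33 and -0.08 at 8 weeks. Their part in the interferon result was not tested.

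Among genes of endothelial cells and of the extracellular matrix, more were lower than higher. Of 24 endothelial genes 9 were lower and 1 higher (37.5% and 4.17%, median -0.21), with 3 lower with the Y-linked covariate, 6 with slide as a block and 1 with 8-week replicate 2 as the lone heart. Emcn, the sialoglycoprotein of capillaries and veins, lay at 1.43, 1.13, 1.66 and 1.88 and then at 0.11, 0.18 and 0.12 (-1.38 ± 0.24, adjusted p = 0.000296). Cdh5, the junction protein VE-cadherin, lay at 1.41, 0.93, 1.15 and 1.74 and then at 0.12, 0.45 and 0.15 (-1.07 ± 0.30, adjusted p = 0.011), while a second probe gave -0.16 (0.268 over all probes). Kdr, the VEGF receptor, fell by 1.17 ± 0.24 (adjusted p = 0.00114). For Cav1, the caveolar coat protein, the brightest probe gave -1.25 ± 0.26 (adjusted p = 0.00163) and another -0.10 (0.437 over all probes). Pecam1, another defining marker, differed by -0.19 ± 0.13 (adjusted p = 0.295). Sox17, an arterial transcription factor, rose by 0.86 ± 0.28 (adjusted p = 0.0281). The Sox17 call was lost without 3-week replicate 1 (0.057) or 2 (0.0568) and without 8-week replicate 1 (0.0658), 2 (0.0688) or 3 (0.0795), with the Y-linked covariate (0.173), on the heart channel alone (0.0561) and without the dim filter (0.0587). With 8-week replicate 2 as the lone heart, Sox17 (0.254), Cav1 (0.124), Cdh5 (0.27) and Kdr (0.0561) lost their calls, and Cdh5 did so with slide as a block (0.0563) and with the Y-linked covariate (0.104). Emcn kept its call in every alternative run. The list's mean level was 0.51 to 0.87 at 3 weeks and 0.30 to 0.42 at 8 weeks, and its mean difference was -0.44 within slide 2 and -0.09 within slide 5.

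Of 34 extracellular matrix and fibroblast genes 15 were lower and 1 higher (44.1% and 2.94%, median -0.43). The lower genes numbered 9 without 8-week replicate 3, 9 with slide as a block and 7 with the Y-linked covariate. They were fewer still in a further run, and the median lay between -0.58 and -0.22 over all runs. Vim, the intermediate filament of mesenchymal cells, fell from -2.18, -2.58, -2.90 and -2.21 to -4.19, -3.94 and -3.99 (-1.57 ± 0.29, adjusted p = 0.00053). Lum, a collagen-binding proteoglycan, fell from -0.99, -1.64, -1.25 and -0.66 to -2.83, -2.44 and -2.72 (-1.53 ± 0.27, adjusted p = 0.000402). Col3a1, fibrillar collagen III, fell by 1.70 ± 0.39 at its brightest probe (adjusted p = 0.00291) and by 0.01 at another (0.942 over all probes). Col1a1, collagen I, lay at -5.59, -5.68, -5.65 and -4.38 and then at -5.97, -6.18 and -6.26 (-0.81 ± 0.66, adjusted p = 0.373). Col3a1 lost its call without the dim filter (0.051), with the Y-linked covariate (0.0551) and with 8-week replicate 2 as the lone heart (0.0873), and Lum in the last of these (0.0597).

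Markers of the heart's cell types put these levels side by side. Of 7 endothelial markers 3 were lower, with a mean level of 0.46 to 0.82 at 3 weeks and 0.06 to 0.19 at 8 weeks. Of 7 fibroblast markers 3 were lower, with -2.52 to -1.95 and -3.28 to -3.14. Of 9 cardiomyocyte markers 0 were called in limma, and the mean of the 5 measured on every array lay between 2.63 and 3.09 at 3 weeks and 2.85 and 3.06 at 8 weeks. The other 4 (Tnnt2, Tnni3, Myl3 and Mybpc3) had their spot left out as an outlier on 8-week replicate 3. The SE was large for Mybpc3 (2.05), Tnni3 (0.95) and Pln (0.66), so changes in them may be missed. In a list of 13 cardiomyocyte marker genes, 2 were higher and 1 lower (15.4% and 7.69%), against 13.5% and 18% of all genes. None of 4 smooth muscle markers was called, and 1 of 4 tested atrial markers, Nppa, was. The part of the markers in the other results was not tested.

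Among the largest falls were nuclear RNAs. Malat1 and Neat1, long noncoding RNAs that stay in the nucleus, fell 7.05-fold and 6.12-fold. Malat1 lay at -0.67, -0.44, -0.15 and -0.55 and then at -2.96, -3.64 and -3.20 (-2.82 ± 0.39, adjusted p = 4.15e-05), and all 4 of its probes fell, with differences of -2.82 to -1.90, 1 of them with its spot missing on 8-week replicate 3. Neat1, which builds nuclear paraspeckles, lay at 0.33, 0.05, 0.95 and 0.41 and then at -2.11, -2.20 and -2.23 (-2.61 ± 0.53, adjusted p = 0.00128), with the call lost with 8-week replicate 2 as the lone heart (0.0591). Kcnq1ot1, an antisense RNA that silences its imprinted region, was not well above background in any 8-week heart and was at least 1.8-fold lower on the heart channel (adjusted p = 0.000374 in limma). Of 10 nuclear noncoding RNAs, 4 were lower and 0 higher, also at an unadjusted p under 0.05. By class, 27.5% of 182 long noncoding RNAs and 32.8% of 2153 transcripts without a RefSeq symbol were lower, against 15.3% of 12171 protein-coding genes. They were higher in 7.69%, 6.27% and 14.9%.

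Among the 15 named genes with the largest falls, several protein-coding ones had 1 probe with a large fall and others with small or upward differences. Pinx1, a telomerase inhibitor, lay at 2.96, 3.49, 4.09 and 3.93 and then at 0.06, 0.03 and -0.04 at its brightest probe (-3.60 ± 0.39, adjusted p = 3.6e-06). Its second probe differed by -0.11 (0.301 over all probes). L3mbtl2, a chromatin repressor, lay at 3.55, 3.86, 4.53 and 3.77 and then at 0.74, 0.98 and 0.87 (-3.06 ± 0.29, adjusted p = 1.11e-06), while its second probe gave 0.45 (0.00312). Ddx42, an RNA helicase, gave -2.76 and -0.17, and Inhbb, an activin subunit, -2.14 and 0.21. Gabbr2, a GABA receptor subunit, gave -3.0 and a smaller fall of -0.27 (0.00255 over all probes). Ing5, a histone-binding protein, gave -2.68 at the brightest probe and -0.03 and 0.25 at the others. Prdm2, a methyltransferase, was at least 4.1-fold lower at a probe not well above background in any 8-week heart, and differed by 0.23 at another, and its call (adjusted p = 0.000555) was lost with the Y-linked covariate (0.0727). Zfc3h1, a factor of nuclear RNA decay, had 5 probes with -2.50, -1.97, -1.17, -0.43 and -0.13. Srrm3, Stra6 and Pdia5 fell by 3.35, 3.19 and 2.53 on 1 measured probe each. In Srrm3, Stra6, L3mbtl2, Gabbr2, Ddx42, Ing5, Pdia5, Zfc3h1, Prdm2, Inhbb and Pinx1 the highest 3-week heart was replicate 3. Of those of the 15 with more than 1 measured probe, only Malat1, Xist and Zfc3h1 had further probes with falls over 1.

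**Figure D3:**
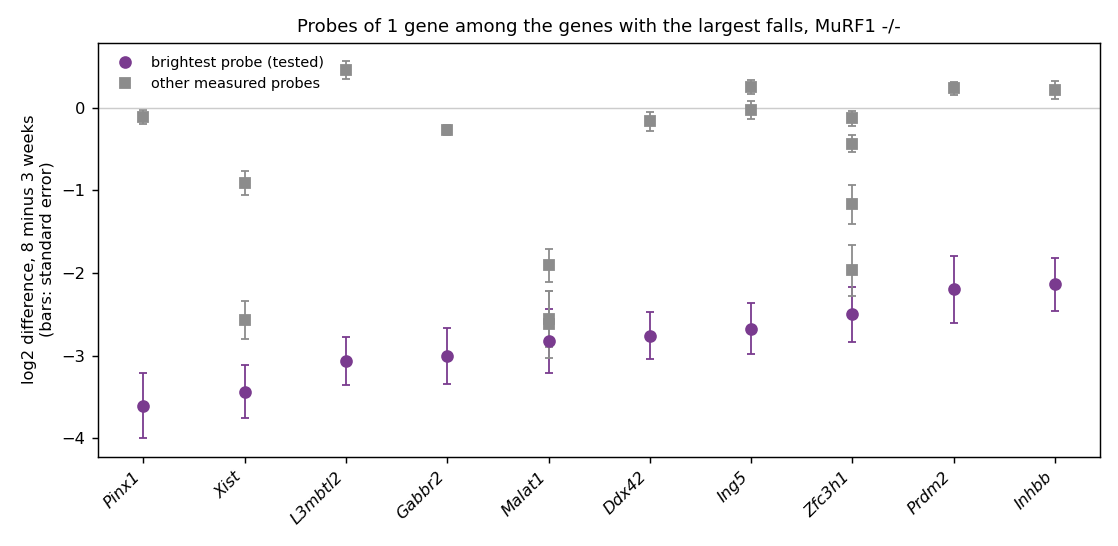
Log2 difference of 8 minus 3 weeks at each measured probe, with standard errors, for the 10 of the 15 most lowered genes that had more than 1 measured probe. All Malat1 probes fell, from -2.82 to -1.90, whereas the second probes of Pinx1 (-0.11) and L3mbtl2 (0.45) lay far from the brightest ones (purple).

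Messages for splicing factors were also lower. Of 39 splicing and RNA-binding protein genes, 23 were lower and 4 higher (59% and 10.3%, median -0.56), with 18 lower without 8-week replicate 2, 18 with the Y-linked covariate and 11 with 8-week replicate 2 as the lone heart. Hnrnph1, a nuclear RNA-binding protein, lay at -0.54, -0.50, -0.70 and -0.14 and then at -1.98, -2.05 and -2.15 (-1.59 ± 0.14, adjusted p = 7.49e-07). Clk1, the kinase of splicing factors, fell from -0.27, -0.57, -0.09 and 0.17 to -1.55, -1.32 and -1.59 (-1.30 ± 0.22, adjusted p = 0.000252), with -0.89 at a second probe. Pnisr, a splicing-associated protein, fell by 1.33 ± 0.15 (adjusted p = 7.17e-06), with -0.30 at a second. Cirbp, the cold-inducible RNA-binding protein, rose from -0.93, -1.12, -0.85 and -0.43 to 0.08, 0.18 and 0.11 (0.96 ± 0.17, adjusted p = 0.000472). Hnrnph1, Clk1, Pnisr and Cirbp kept their calls in every alternative run. The number higher was 2 without 3-week replicate 1 or 8-week replicate 2.

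Transcripts of the sex chromosomes differed between the groups. Xist, the RNA that coats the inactive X chromosome, lay at -0.04, -0.20, 0.08 and 0.20 in the 3-week hearts and at -3.51, -2.72 and -4.05 in the 8-week hearts, a 10.8-fold fall (-3.44 ± 0.32, adjusted p = 8.88e-07). Its 2 other probes fell by 2.57 and 0.91. Eif2s3y, a translation factor gene on the Y chromosome, lay at -1.25, -1.25, -1.57 and -0.31 and then at 1.43, -0.93 and 1.37. Ddx3y, a Y-linked RNA helicase, lay at -0.88, -0.96, -1.22 and -0.17 and then at 1.47, -0.68 and 1.30. Both were well above background in 8-week replicates 1 and 3, and neither was in replicate 2. At 3 weeks Ddx3y was so in replicate 1 alone and Eif2s3y in replicate 4 alone. The differences of 1.71 ± 0.39 for Eif2s3y (adjusted p = 0.00302) and 1.51 ± 0.35 for Ddx3y (0.00319) thus rested on 2 of 3 hearts, and both calls were lost with replicate 2 as the lone heart (0.806 and 0.822). Mid1 spans the edge of the region that the X and Y chromosomes share. It fell from 1.90, 1.78, 1.50 and 1.90 to -0.29, -0.47 and -0.47 (-2.18 ± 0.16, adjusted p = 1.25e-07), replicate 2 included. The labels give no sex, and for 8-week replicates 1 and 3 the Y-linked level and the weeks on the diet cannot be told apart. The Xist and Mid1 levels parted the groups in every heart, so these levels and the weeks cannot be told apart in any of them. Neither the Y-linked covariate nor leaving out replicates 1 and 3 removes that.

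Some further genes that rose were higher in 8-week replicates 1 and 3 than in replicate 2. Among them, Arc and Ccrl2 kept their calls when any 1 of the 7 hearts was left out. Arc, an immediate early gene of synapses and muscle, lay at 0.94, 0.60, 0.05 and 0.60 and then at 2.23, 1.71 and 2.74 (1.68 ± 0.41, adjusted p = 0.00425). Ccrl2, a chemerin-binding receptor, lay at 1.58, 1.39, 2.07 and 1.06 and then at 3.29, 2.08 and 3.64 (1.48 ± 0.29, adjusted p = 0.000887). The Arc call was lost with the Y-linked covariate (0.157) and with replicate 2 as the lone heart (0.246), and that of Ccrl2 likewise (0.108 and 0.288). Hspa1a, an inducible heat shock protein, lay at -1.95, -1.77, -1.81 and -1.27 and then at -0.10, -1.25 and -0.21 (1.18 ± 0.32, adjusted p = 0.00838), a call lost without 8-week replicate 1 (0.0539) or 3 (0.0508).

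**Figure D4:**
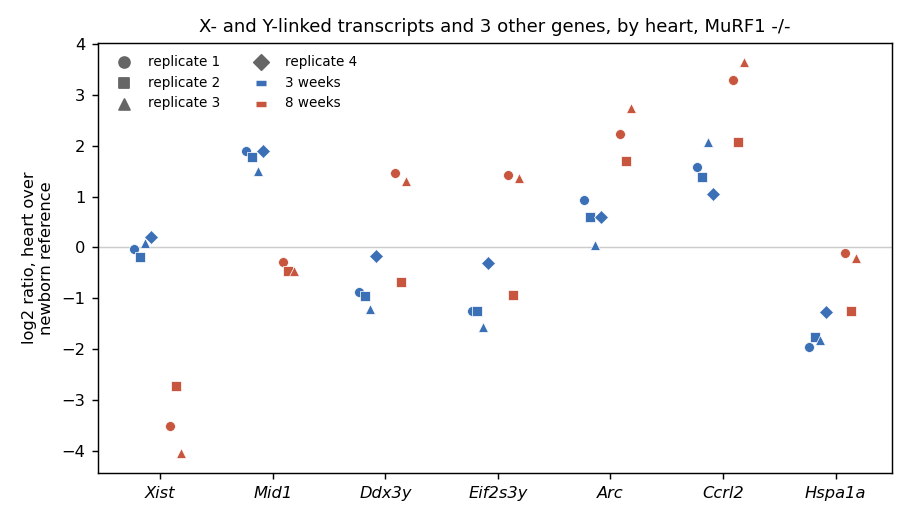
Log2 ratio of heart over newborn reference for 4 sex-linked transcripts and 3 further genes in each MuRF1 -/- heart, with the replicate number as the symbol and the weeks as the colour (blue 3, red 8). Xist and Mid1 are low in all 3 red hearts, whereas Ddx3y and Eif2s3y are high in replicates 1 and 3 and low in replicate 2 (-0.68 and -0.93).

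The same contrast in MuRF1 +/+ hearts called 2587 genes (17.8%), 1182 higher and 1405 lower. It shares no heart with the MuRF1 -/- contrast. Of the 4592 genes called in MuRF1 -/-, 1588 were called the same way in MuRF1 +/+ (34.6% of the MuRF1 -/- and 61.4% of the MuRF1 +/+ calls) and 10 the opposite way. Across the 14567 genes, which are not independent replicates, the 2 sets of differences gave Pearson's r = 0.601 and Spearman's rho = 0.504. Acot1 (2.40 in MuRF1 -/- and 2.36 in MuRF1 +/+), Pdk4 (2.34 and 2.35) and Lrg1 (1.62 and 1.62) were near each other in the genotypes. Mt2, a metallothionein, rose by 3.46 in MuRF1 +/+ and by 1.26 ± 0.42 in MuRF1 -/-, where the call (adjusted p = 0.0284) was lost in 10 of 22 alternative runs, among them those without 3-week replicate 2 (0.0727) or 3 (0.0616) or any 8-week heart (0.0617 to 0.0895). The difference between the genotypes was -2.20 for Mt2 (adjusted p = 0.119).

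The gene lists in the 2 genotypes are given side by side. The interferon list had a median of -0.60 in MuRF1 -/- and -0.06 in MuRF1 +/+, where 1 gene was lower and 0 higher (4 and 1 at an unadjusted p under 0.05). The ribosomal list had -0.38 and 0.08, the endothelial list -0.21 and 0.42, the matrix list -0.43 and 0.12 and the branched-chain list 0.39 and -0.05. In MuRF1 +/+ 6 endothelial genes were higher and 0 lower (11 and 2 at an unadjusted p under 0.05). The PPAR alpha list had 0.28 and 0.17 and the lipid droplet list 0.45 and 0.30. A test of the genotype difference called 0 members of these 7 lists in limma. At an unadjusted p under 0.05 it passed for 18 of 30 interferon, 45 of 73 ribosomal, 12 of 24 endothelial, 15 of 34 matrix, 8 of 20 branched-chain, 9 of 38 PPAR alpha and 10 of 22 lipid droplet genes. Over all genes it passed for 2774 of 14567 at that level, the background for these counts. The share of the PPAR alpha list lay nearest to that of all genes. Gbp3 had the smallest adjusted p among the interferon genes named here, 0.0988 for a difference of -1.21, and Trim55 had 0.101 for -1.21.

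**Figure D5:**
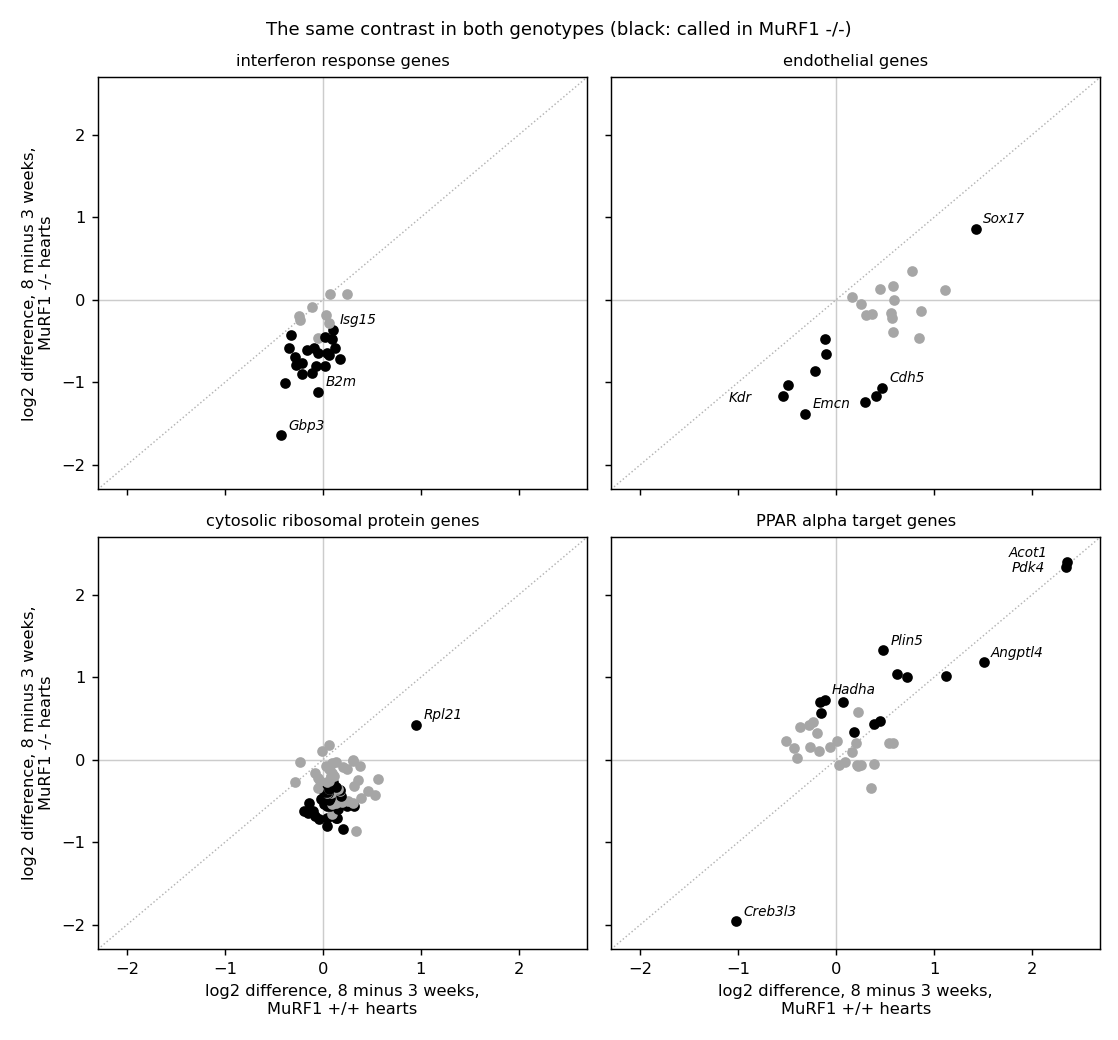
Log2 difference of 8 minus 3 weeks in MuRF1 -/- hearts (y axis) against the same in MuRF1 +/+ hearts (x axis) for the genes of 4 lists, black where called in MuRF1 -/- and grey where not, with a dotted line of equality. Acot1 and Pdk4 lie on the line at 2.40 and 2.34, while all 24 endothelial genes and 28 of 30 interferon genes lie below it.

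Of all genes, 1 (0.00686%) passed the test of the genotype difference. Efnb3, an ephrin ligand of the cell surface, lay at 0.38, 0.63, 0.69 and 0.09 at 3 weeks and at 1.37, 1.18 and 1.52 at 8 weeks in MuRF1 -/- (0.91 ± 0.17, adjusted p = 0.000729). In MuRF1 +/+ its mean went from 0.92 to 0.20 (-0.72 ± 0.17, adjusted p = 0.00739). The difference between the genotypes was 1.63 ± 0.24 (adjusted p = 0.04 in limma). Within MuRF1 -/-, the pairs on slides 2 and 5 differed by 1.43 and 0.55. The number of genes passing in limma was 0 with slide as a block (1667 at an unadjusted p under 0.05), with the Y-linked covariate (2210), without 3-week replicate 1 (2511) or 2 (3102) and without 8-week replicate 1 (2407) or 3 (1959). It was 7 without 3-week replicate 3, 15 without 3-week replicate 4 and 3 without 8-week replicate 2. The MuRF1 -/- call of Efnb3 was lost with 8-week replicate 2 as the lone heart (0.0908).

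Clock genes were higher for 4 of 17 and lower for 0 (6 and 1 at an unadjusted p under 0.05), with Nfil3, a repressor of the clock's output, up by 1.23 ± 0.18 (adjusted p = 5.45e-05) and 0.96 at a second probe. Heat shock genes were higher for 5 of 29 and lower for 7 (17.2% and 24.1%), against 13.5% and 18% of all genes. Immediate early genes were higher for 4 of 20 and lower for 1 (20% and 5%). Without single hearts these counts moved to between 2 and 7 for immediate early genes higher and to 2 or 3 for heat shock genes higher (without 8-week replicate 3 or 1). Heat shock genes numbered 2 higher and 5 lower with the Y-linked covariate, and immediate early genes 1 and 1. Sterol synthesis genes were higher for 3 of 28 and lower for 5 (10.7% and 17.9%), with 2 lower without 3-week replicate 4 or 8-week replicate 2 or 3. NAD synthesis genes were higher for 2 and lower for 2 of 13 (15.4% each). Both lists lay near the shares of all genes, 13.5% and 18%. Cell cycle genes were higher for 0 and lower for 1 of 22 (0 and 3 at an unadjusted p under 0.05). Adipocyte genes were higher for 1 and lower for 1 of 15, skeletal muscle genes for 2 and 0 of 16 (2 and 0 unadjusted) and red blood cell genes for 1 and 0 of 7 (1 and 0 unadjusted). Nmrk2, the muscle kinase of nicotinamide riboside, differed by -0.72 ± 0.33 (adjusted p = 0.11) and Cyp1a1, which the aryl hydrocarbon receptor switches on, by 0.26 ± 0.24 (0.433).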

How the data were processed

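RNA of 20 mouse hearts was measured on 2-colour Agilent arrays, with the heart in Cy5 and the newborn reference in Cy3 per the labels. The labelling protocol names Cy3 for the heart, the channel labels were followed, and dyes were not swapped. The spot intensities deposited by the authors came from Feature Extraction 9.5.3.1, per the file headers. The deposited log10 ratios of that software and the deposited log2 values of the series matrix served as alternatives. The deposited flags for outliers and for signals well above background (other, not a measurement) served as filters.

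Background was corrected by normexp with an offset of 50, then loess gave the log2 ratios (limma 3.58.1, R 4.3.3, with 1.17.8 of the data.table package). Control spots had weight 0, outlier spots were missing, and 7 spots on an array outside this comparison, whose background exceeded the signal by 50 or more, were left out of the background fit, which departs from the plan; the planned fit on all spots is an alternative. A gene was its brightest probe, tested where at least 3 of 20 arrays had it well above background. Names came from RefSeq by accession (22951 probes), symbol (6659) or synonym (3109), and 8455 probes kept the file's name. One limma model of 6 group means over all 20 arrays, with a trended variance prior, gave every difference, and the scripts were tested on simulated data. "At least" folds compare the normalized heart channels, with the dim side set no lower than each array's lowest signal well above background, and are open to dye bias. The Y-linked covariate is the mean of Ddx3y and Eif2s3y. The scan dates in the file headers put the 20 arrays in 5 sets of 4, called slides here. No slide label was used.

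The comparison and the gene lists were chosen with earlier results of these data known. Named genes are the 15 with the largest difference each way among called genes with a RefSeq symbol and no overlap between groups, up to 4 called members per direction of a list, a fixed set (Trim63, sex-linked, fetal and drug-response genes) and genes past the genotype test. Other members were picked for their role after their values were seen, and some genes that met the rule are not reported here. The labels call the hearts biological replicates, so p-values measure the spread between them.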

Additional observations from a re-analysis of the deposited data

Results flagged for a closer look

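Replicate 4 of the 3-week hearts, the heart with the fewest probes above background, lay far from the other 3 in 12 of 218 named genes, by a test that chance passes in about 1 of 20 groups. Its log2 ratio was below the others for Idh2, a mitochondrial dehydrogenase, at 0.67 (others 1.86 to 2.08) and Psmc3, a proteasome ATPase, at -0.36 (0.45 to 0.58). It was below them also for Xirp1 at 0.05 (0.74 to 0.84), Adcy5 at 0.15 (0.82 to 0.94), Ahrr at 0.32 (0.93 to 1.05), Psmb9 at 0.93 (1.40 to 1.47) and Bag3 at 1.45 (1.84 to 1.90). It was above them for Rps12 at 0.21 (-0.61 to -0.54), Ddx3x at 0.40 (-0.30 to -0.23), Cpt1b at 2.51 (2.08 to 2.13), Myh6 at 3.60 (3.41 to 3.42) and Col1a1 at -4.38 (-5.68 to -5.59). For 1 further gene, Grb10, replicate 3 lay apart, at -2.99 (-2.76 to -2.74).

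The 8 minus 3 week difference of Efnb3 was 1.63 higher on the log2 scale in MuRF1 -/- than in MuRF1 +/+ hearts, by a test of the genotype difference in limma (adjusted p = 0.04).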

How the results depend on the processing

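The 4592 calls in MuRF1 -/- became 7032 with array weights, 2004 with the Y-linked covariate and 1272 with 8-week replicate 2 as the lone heart, and lay between 3216 and 4807 with 1 heart left out. The 2587 calls in MuRF1 +/+ became 4737 with array weights. The single gene past the genotype test became 3 on the heart channel alone, 4 without the dim filter, 1001 with array weights, 0 with slide as a block, 0 with the Y-linked covariate, 0 with the lone heart, 30 without the 2 arrays that stand apart and 3 with the mean over probes, and 0 to 15 with 1 heart left out; those counts of 0 had 1667, 2210 and 1193 genes at an unadjusted p under 0.05 in limma. With the replicate number as a block 4200 genes were called in MuRF1 -/- and 2 passed the genotype test. After subtraction of the group means, hearts of the same number correlated at -0.263, -0.013 and 0.289. Hearts of different numbers correlated at -0.313 to 0.329. So few values cannot tell whether the numbers pair the hearts. Between-array scaling by Aquantile cannot change ratios and gave 4592. The difference of Ddx3y became -0.0036 with the Y-linked covariate, which is built from it, and 74 of 218 named genes kept their side of the threshold in every alternative that tested them (10 of the 74 were not tested under the strict filter on dim probes). With 3 and 4 hearts a group and signals near background in many probes, small differences may be missed.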
